A study of Mus musculus with 28 samples.

Results

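Endothelial cells of injured mouse kidneys were compared between 2 treatments, a mimic of the microRNA miR-486-5p (2 libraries) and exosomes (3 libraries). These 5 libraries were picked out by their labels, out of 28 samples in 10 groups. The comparison itself was chosen with earlier results of these data known. The mice were male, of the FVB strain, and had acute kidney injury by ischemia and reperfusion. After enzymatic digestion of the kidneys, endothelial cells had been drawn out with microbeads against CD31, and polyadenylated RNA was sequenced. Another injured group given scrambled miRNA (3 libraries) shared the fit as a control, and its values stand beside the others. The labels give no dose, no time after injury and no source cell for the exosomes. They state that RNA came from 3 mice in each experimental group, while the series design gives n = 2 for the mimic. Each library was taken as 1 animal, and if this does not hold, the tests measure only the spread between libraries.

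MicroRNAs are short RNAs that guide a repressor complex to messenger RNAs with matching sites, mostly in 3′ untranslated regions. miR-486-5p is abundant in red cell precursors and muscle and is known to repress Foxo1, a transcription factor that AKT keeps out of the nucleus. More miR-486-5p is known to favour AKT signalling and survival. Exosomes are small membrane vesicles that cells release with proteins and RNAs inside, and exosomes of endothelial progenitor cells, which carry miR-486-5p, have been reported to protect the kidney after ischemia. The comparison therefore asks how far the miRNA alone and the vesicles leave the renal endothelium in the same state. Ischemia is known to strip peritubular capillaries, to raise adhesion molecules on their lining and to draw in leukocytes.

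The endothelial label was borne out in part. All 28 endothelial identity genes that had been listed were measured, and their summed level was 3941 and 4511 CPM (read counts relative to the TMM-scaled library size) with the mimic, 3172, 3319 and 3942 with exosomes, and 2646, 4622 and 3486 with scrambled miRNA. Pecam1, which encodes the CD31 antigen of the beads (chromosome 11, 106654217 to 106750628, GRCm38), stood at 267 and 340 CPM with the mimic, 253, 272 and 285 with exosomes, and 213, 343 and 248 with scrambled miRNA, so the 3 groups overlapped. RNA of other kidney cells was plentiful. Umod, whose product uromodulin is made in the thick limb of Henle, reached 27976 and 28845 CPM with the mimic and 14075, 20697 and 25666 with exosomes. Per length it was the far larger of the pair, at 4850 to 11617 TPM (scaled by transcript length) over the 5 libraries against 34.7 to 70.6 TPM for Pecam1. In such mixed samples fewer cells of a type and less RNA per cell cannot be told apart.

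Depth was 14.2 and 24.1 M reads with the mimic, 12.7, 13.6 and 12.1 M with exosomes, and 8.27 to 11.8 M with scrambled miRNA. The 3 exosome libraries did not resemble one another closely. Exosome library 1 carried most of the proximal tubule RNA (summed markers at 28764 CPM, against 6130 and 4871 in the other two and 4183 to 5029 with the mimic). Exosome library 2 carried most of the RNA of injured tubules (21351 CPM, against 3816 and 3728 in the other two, 3463 and 4339 with the mimic and 22257 to 32236 with scrambled miRNA). Mitochondrial transcripts took 23.8% of reads in exosome library 2 and nearly as much in exosome library 3, against 14.6% in exosome library 1 and 15.8% and 14.6% with the mimic. Beside folds that these libraries carry, the value without the library is given.

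No gene was called between mimic and exosomes. Of 16316 genes tested, 0 (0.0%) passed edgeR's quasi-likelihood test at an adjusted p under 0.05, and the smallest adjusted p was 0.988. At an unadjusted p under 0.05 there were 661 genes (4.05%), of which 151 (0.925%) were higher and 510 (3.13%) lower with the mimic. Of those 510 genes, exosome library 1 was the highest of the 5 libraries in 398 (78.04%). Exosome libraries 2 and 3 were highest in 91 (17.84%) and 21 (4.118%). Over all genes tested the shares of exosome libraries 1, 2 and 3 were 30.49%, 21.75% and 15.98%. Those shares are not a like base, since the 510 genes were picked as lower with the mimic and in 0 of them was a mimic library highest. DESeq2, run as an alternative, called 5 genes, 1 higher and 4 lower. In simulated data edgeR's test recovered 10 of 100 genes changed by a log2 fold of 1, and 88 of 100 changed by 2. A gene that misses the test is not thereby shown to be equal, and the intervals below give the sizes that remain possible.

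How far the libraries lay apart across the transcriptome depended on the exosome library. The SD over genes of the log2 CPM difference between the mimic libraries was 0.606. Exosome library 3 was 0.621 and 0.629 away from them, hardly farther than they were from each other. Exosome library 2 was 0.776 and 0.731 away and exosome library 1 was 0.974 and 0.978 away, while pairs within the exosome group differed by 0.738 to 0.941. The span from mimic to exosome libraries was therefore about that within the exosome group. Distances to the scrambled-miRNA libraries were 0.900 to 1.14 from the mimic and 0.804 to 1.10 from exosomes, with 0.851 to 0.891 among the scrambled-miRNA libraries themselves. Exosome library 1 was about as far from the scrambled-miRNA libraries (0.926, 0.967 and 0.976) as from the mimic libraries. For 8938 genes (54.8%) the 95% interval of the log2 fold lay within 1 unit on either side of 0, which bounds their difference below 2-fold. An absolute log2 fold of 1 or more was estimated for 1405 genes (8.61%).

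**Figure D1:**
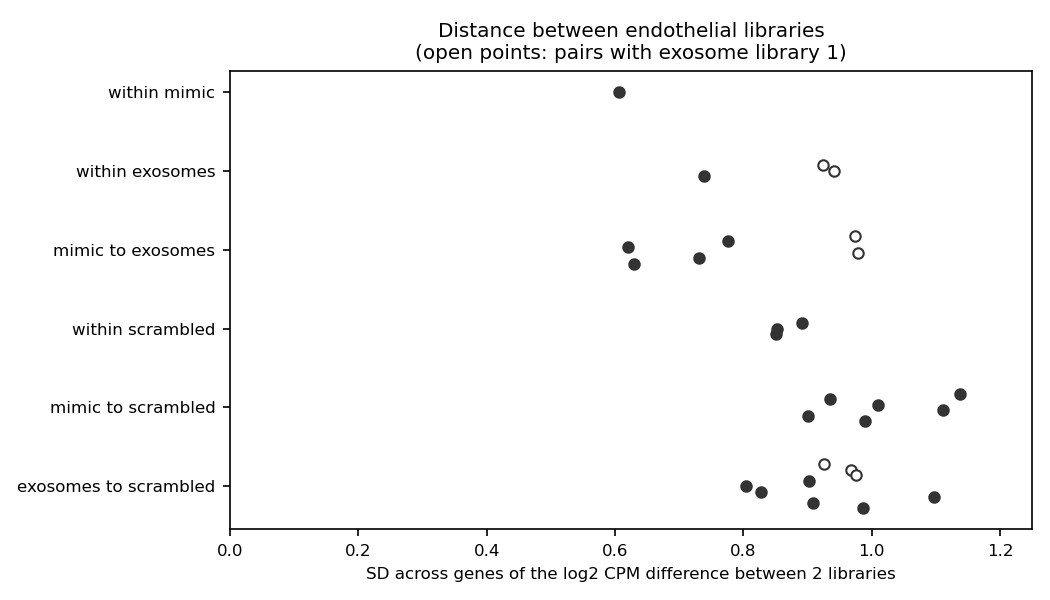
Distance between pairs of endothelial libraries, as the SD across genes of their log2 CPM difference, by the groups the pair comes from. Open points are pairs that include exosome library 1. The mimic pair sits at 0.606, 2 of the 6 pairs of mimic and exosome libraries sit at 0.621 and 0.629, and those with exosome library 1 sit at 0.974 and 0.978.

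Foxo1, the reported target at the centre of the study (chromosome 3, 52268336 to 52353221), differed little. It stood at 49.6 and 49.4 CPM with the mimic, at 69.3, 46.4 and 50.7 with exosomes, and at 52.8, 48.0 and 51.7 with scrambled miRNA. Only exosome library 1 was apart, and the mimic libraries lay inside the range of the exosome libraries. The log2 fold of mimic over exosomes was -0.16 (SE 0.19, 95% interval -0.60 to 0.27), and 0.03 without exosome library 1. Any Foxo1 difference inside that interval, 0 included, remains possible with these libraries.

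Pik3r1, the regulatory subunit p85 of PI3-kinase and another reported target, was at 94.0 and 102 CPM with the mimic and 102, 127 and 106 with exosomes (log2 fold -0.19, SE 0.21). Both treated groups lay at the lower end of or below the scrambled-miRNA libraries, which held 119, 152 and 186 CPM.

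Of 14 genes reported in the literature as miR-486-5p targets, 12 had enough reads to test, 0 passed, and 9 of the 12 log2 folds were below 0 (median -0.17, against -0.01 over all genes, of which 49.0% were above 0). For 9 of the 12, the interval stayed within 1 log2 unit. Olfm4, which encodes the secreted glycoprotein olfactomedin 4, had the largest difference. It was at 5.84 and 14.7 CPM with the mimic and 25.1, 60.1 and 16.4 with exosomes, so that the groups did not overlap, although 14.7 and 16.4 lay side by side (log2 fold -1.71, SE 0.58, and -1.02 without exosome library 2). In the scrambled-miRNA libraries Olfm4 stood at 70.4, 92.6 and 126 CPM, above both treatments. Hat1, a histone acetyltransferase, came next with 17.9 ± 4.10 CPM (SD, n = 2) with the mimic and 25.4 ± 8.03 CPM (SD, n = 3) with exosomes (log2 fold -0.50, SE 0.29, and -0.28 without mimic library 1). Smad1, Smad2, Sirt1, Igf1r, Igf1, Arhgap5 and Pim1 had log2 folds between -0.26 and 0.24. The 2 that could not be tested, Dock3 and Pax7, are genes of brain and muscle. The sequence of miR-486 was not at hand, so no seed matches were counted.

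The other FoxO factors did not pass the test either. Foxo3 was at 87.1 and 88.2 CPM with the mimic and 98.5, 72.5 and 110 with exosomes (log2 fold -0.10, SE 0.23). Foxo4 differed by 0.16 (SE 0.25). Foxo6, a low transcript, was at 1.34 and 1.24 CPM with the mimic and 0.333, 0.802 and 0.971 with exosomes, without overlap (0.87, SE 0.92), and the 4 factors had a median of 0.03. Among 27 genes of the PI3K, AKT and mTOR pathway 0 passed, 18 were above 0, the median was 0.06, and 22 had an interval within 1 log2 unit. Akt1, the kinase itself, was at 120 and 123 CPM with the mimic and 82.7, 119 and 126 with exosomes (log2 fold 0.15, SE 0.20), exosome library 1 being the low one. Mtor, the growth kinase downstream, was at 71.8 and 66.2 against 139, 72.1 and 76.3 CPM (-0.47, SE 0.32, and -0.11 without exosome library 1), and Pik3r3, another regulatory subunit, at 57.6 and 54.6 against 40.7, 45.5 and 53.2 CPM (0.27, SE 0.20).

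FoxO factors are known to switch on genes of cell cycle arrest and of the defence against oxidants. All 20 such genes listed were tested, 0 passed, and 14 were above 0 with the mimic (median 0.11). Ccng2, a cyclin that slows the cell cycle, was at 44.5 and 46.5 CPM with the mimic and 35.3, 31.3 and 40.9 with exosomes (log2 fold 0.34, SE 0.19, and 0.90 with transcript lengths in the model), and the groups did not overlap. Cat, the peroxisomal catalase, stood at 185 and 181 against 524, 208 and 185 CPM (-0.74, SE 0.43), high in exosome library 1 alone, and the log2 fold was -0.10 without it. Transcript levels do not show where FoxO proteins lie or how far AKT is phosphorylated.

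**Figure D2:**
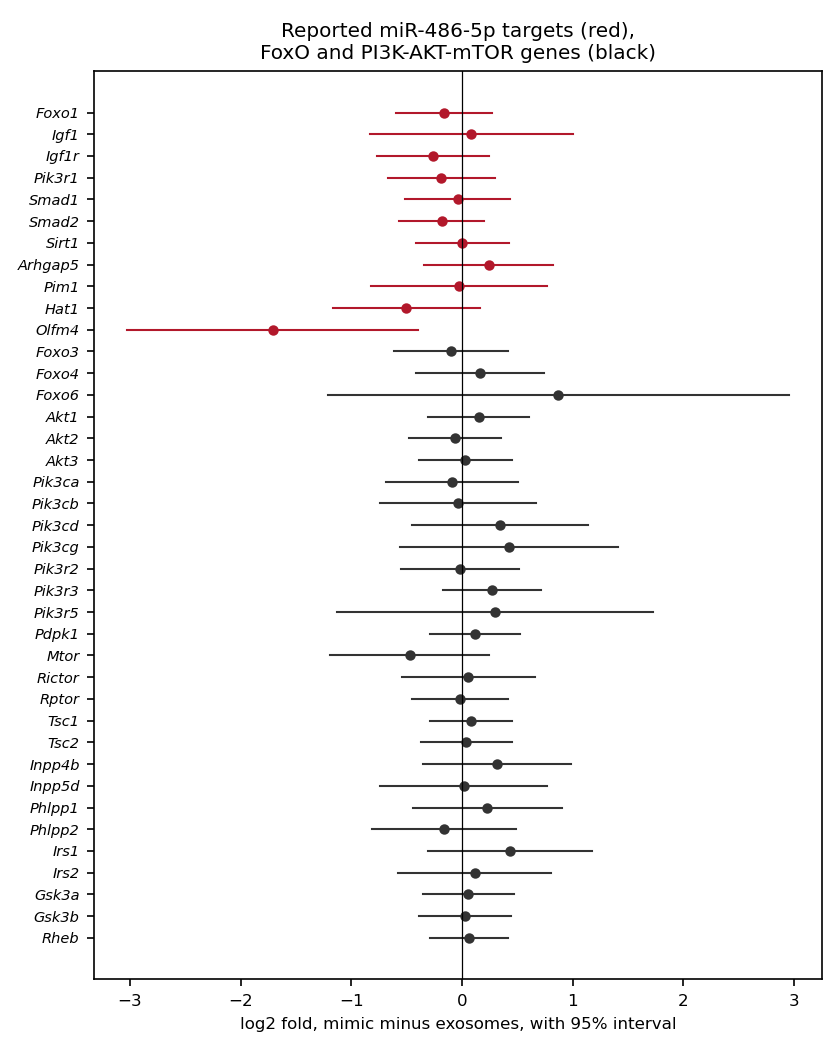
Log2 fold of mimic over exosomes with its 95% interval for reported miR-486-5p targets (red) and for the other FoxO and PI3K-AKT-mTOR genes (black), for genes reported here. Foxo1 (-0.16) and Akt1 (0.15) have intervals that span 0, and Olfm4 (-1.71) is the one target shown whose interval does not.

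Genes of endothelial identity were slightly higher with the mimic throughout, without any passing the test. All 28 had a log2 fold above 0, from 0.01 to 0.72, with a median of 0.34 that lay between 0.25 and 0.47 when any 1 of the 8 libraries in the fit was left out. In 15 of the 28 both mimic libraries were above all exosome libraries. Over all genes the groups did not overlap in 20.3%, with the mimic above in 10.2%. These genes come from 1 cell type in the same 5 libraries, so they are not 28 separate observations. The summed levels overlapped, with mimic library 1 (3941 CPM) level with exosome library 3 (3942 CPM), and the scrambled-miRNA libraries covered the whole range from 2646 to 4622 CPM. Whether the share of endothelial cells had a part in this was not tested.

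Cdh5, the adherens junction protein VE-cadherin, was at 206 and 229 CPM with the mimic and 144, 173 and 199 with exosomes (log2 fold 0.34, SE 0.21). Kdr, the main VEGF receptor, was at 402 and 420 against 357, 312 and 436 CPM (0.16, SE 0.27), and overlapped. The members with the smallest p were Vwf, the clotting glycoprotein of larger vessels, and Sox17, a factor of arterial endothelium. Vwf was a low transcript here, at 7.67 and 11.3 CPM with the mimic and 5.24, 6.65 and 5.47 with exosomes (0.72, SE 0.31, and 0.41 without mimic library 2), while scrambled-miRNA libraries held 10.2, 17.0 and 9.68 CPM. Sox17 stood at 79.6 and 71.0 CPM with the mimic, 36.0, 53.9 and 53.1 with exosomes, and 30.9, 63.5 and 50.6 with scrambled miRNA (0.66, SE 0.29). The mimic libraries were above all 6 others in Sox17, while in Vwf they were within the range of the scrambled-miRNA libraries or below it.

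Sox17 is also 1 of 20 arterial and Notch genes that were tested, of which 0 passed and 18 were above 0. The median was 0.31, and 0.08 without exosome library 1. Notch4, a Notch receptor largely restricted to endothelium, was at 95.3 and 88.9 CPM with the mimic and 45.0, 59.9 and 72.3 with exosomes (log2 fold 0.64, SE 0.28, and 0.48 without exosome library 1). One scrambled-miRNA library held 99.0 CPM of it, the others 55.9 and 61.9. Its ligand gene Dll4 stood at 51.0 and 49.1 against 25.2, 49.4 and 46.1 CPM, low in exosome library 1 alone.

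Of 16 genes of the VEGF and angiopoietin systems, ligands and receptors together, 0 passed, 14 were above 0 and the median was 0.20. Vegfb, a ligand made by many cells, was at 83.2 and 63.3 CPM with the mimic and 41.2, 41.4 and 72.0 with exosomes (0.51, SE 0.26, and 0.30 without mimic library 1). Flt4, the receptor for VEGF-C, was at 44.8 and 43.8 against 29.2, 36.5 and 40.9 CPM (0.32, SE 0.19, and 0.19 without exosome library 1). Vegfa itself overlapped, at 213 and 177 against 104, 184 and 209 CPM. Angptl4, a secreted lipase inhibitor, was low in both treated groups (19.5 and 17.5 CPM with the mimic, 33.9, 29.3 and 11.5 with exosomes) beside 58.6, 113 and 57.2 with scrambled miRNA.

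Genes that respond to flow or set vessel tone were mixed. Of 16 tested 0 passed, 13 were above 0 and the median was 0.24. Ramp2, the adrenomedullin receptor partner, was at 43.6 and 54.7 CPM with the mimic and 29.9, 42.9 and 37.1 with exosomes (0.42, SE 0.22, and 0.25 without mimic library 2). Ace, which makes angiotensin II and is found in endothelium and in the brush border of proximal tubules, went the other way with 37.5 and 41.6 against 77.3, 66.7 and 50.9 CPM (-0.72, SE 0.29), and without overlap. Klf2 and Klf4, the flow-induced factors of quiescent endothelium, were low in exosome library 1 (72.6 and 90.2 CPM), against 155 to 204 CPM in the other 4 mimic and exosome libraries.

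**Figure D3:**
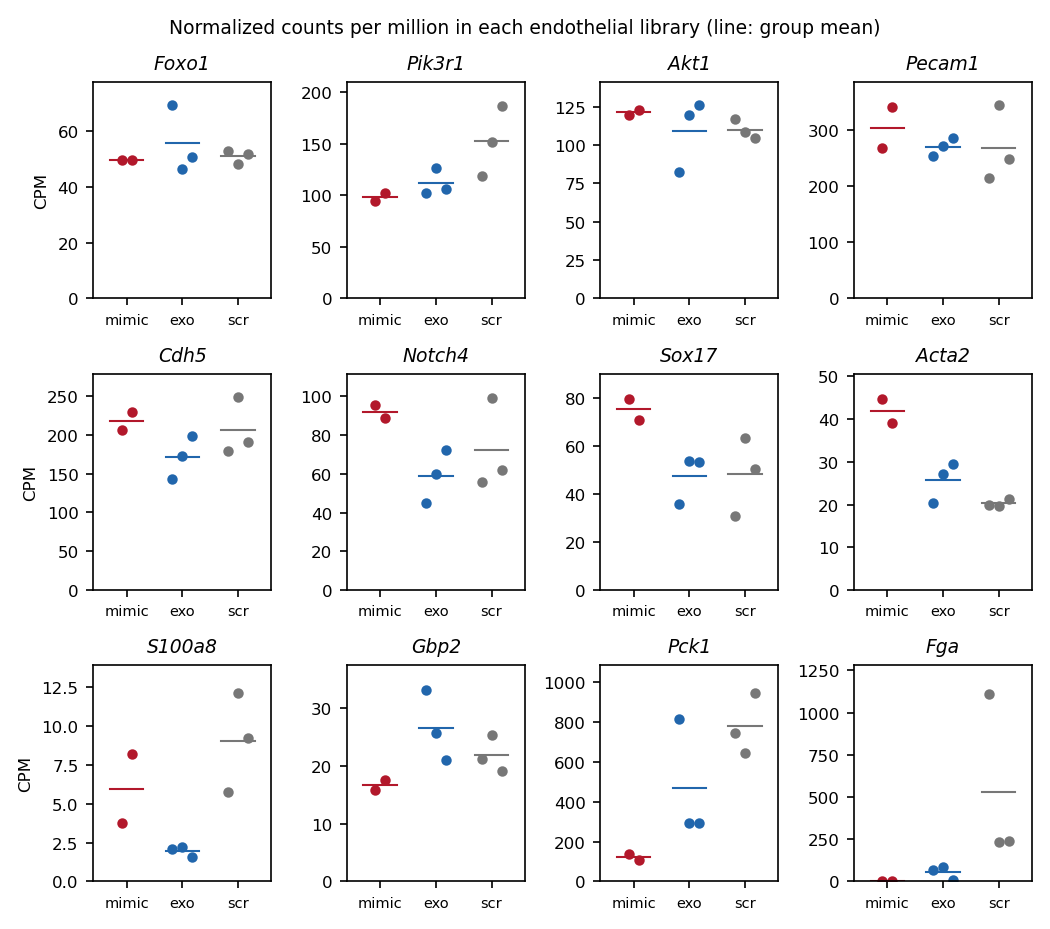
Level of 12 genes in each endothelial library, in CPM on axes that start at 0, for the mimic (2 points), exosomes (3) and scrambled miRNA (3), with a line at each group's mean. Foxo1 and Akt1 lie level apart from exosome library 1, Sox17 and Acta2 are highest in the 2 mimic libraries, and Pck1 is lowest in them.

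Genes of endothelial activation were not shown to differ between the treatments. Of 20 genes of activation and leukocyte adhesion 17 were tested, 0 passed, 7 were above 0, and the median was -0.07. Vcam1, which tethers monocytes and lymphocytes, was at 26.0 and 40.0 CPM with the mimic and 43.3, 26.9 and 27.0 with exosomes (log2 fold 0.03, SE 0.48). Icam1, its counterpart for neutrophils, was at 40.4 and 42.3 against 33.6, 61.0 and 35.2 CPM (-0.07, SE 0.31). The selectin genes Sele (0.08, SE 0.41) and Selp (-0.28, SE 1.02) overlapped as well, and their signs depended on single libraries, as did those of Vcam1 and Icam1. With scrambled miRNA, Icam1 was at 104, 59.1 and 73.3 CPM and Vcam1 at 134, 51.0 and 41.1 CPM. Cxcl10, a chemokine, was at 2.25 and 3.92 CPM with the mimic and 3.99, 8.74 and 4.24 with exosomes (-0.86, SE 0.51, and -0.41 without exosome library 2), and F3, tissue factor, was at 17.5 and 11.3 against 21.0, 49.6 and 13.9 CPM (-0.97, SE 0.51, and -0.30 without exosome library 2).

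Among 25 NF-kB and cytokine genes 0 passed and 17 were below 0 (median -0.10, and 0.14 without exosome library 2). For 8 of them the interval lay within 1 log2 unit. Bcl3, a nuclear cofactor of NF-kB, was at 7.88 and 7.57 CPM with the mimic, 8.23, 20.4 and 9.35 with exosomes, and 20.6 to 33.9 with scrambled miRNA (-0.71, SE 0.40, and -0.20 without exosome library 2). Exosome library 2 alone stood at the level of the scrambled-miRNA libraries.

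Interferon response genes were on the whole lower with the mimic. Of 23 tested 0 passed, 17 were below 0 (median -0.30), and in 7 both mimic libraries lay below all exosome libraries, as in 10.1% of all genes. At an unadjusted p under 0.05 there were 4 of the 23, all lower, beside 3.13% of all genes lower at that threshold. Gbp2, a GTPase that interferon-gamma induces, was at 15.8 and 17.6 CPM with the mimic and 33.2, 25.7 and 21.1 with exosomes (log2 fold -0.68, SE 0.23). With scrambled miRNA, Gbp2 stood at 21.2, 25.3 and 19.1 CPM, so the mimic libraries were the lowest of the 8. The related Gbp3 had a log2 fold of -0.89 (SE 0.34), and Oasl2, another gene of the list, had -0.70 (SE 0.28). The list's median was -0.09 without mimic library 1 and -0.54 without mimic library 2.

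Antigen presentation genes were not shown to differ. Of 17 MHC class I and II genes 0 passed and 12 were below 0 (median -0.07), and 8 had an interval within 1 log2 unit. Tap1, the peptide transporter, was at 16.8 and 23.3 CPM with the mimic and 25.6, 26.5 and 34.4 with exosomes (-0.52, SE 0.33, and -0.30 without mimic library 1), and Nlrc5, the activator of class I genes, at 2.74 and 5.45 against 5.49, 5.77 and 7.59 CPM (-0.60, SE 0.35). In both genes the groups did not overlap, mimic library 2 lying just under the lowest exosome library, and with transcript lengths in the model the log2 fold of Nlrc5 was 0.53.

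The summed level of immediate early genes was 2821 CPM in exosome library 1, against 5532 to 7222 CPM in the other 4 libraries and 4070 to 6370 CPM with scrambled miRNA. Of 21 immediate early genes 0 passed, 16 were above 0, and the median was 0.20, or -0.09 without exosome library 1. The interval lay within 1 log2 unit for 7 of the 21. Fos was at 1068 and 832 CPM with the mimic and 491, 1065 and 949 with exosomes, and Junb at 868 and 635 against 218, 849 and 733 CPM. Egr3 and Nr4a2, also immediate early genes, differed by 0.44 and 0.40. When any 1 library of the fit was left out, they lay between 0.10 and 0.67 and between 0.13 and 0.64. With transcript lengths in the model Nr4a2 was at -1.08. Hspa1b, a heat shock protein 70 gene, was at 1463 and 1241 CPM with the mimic and 271, 1322 and 1808 with exosomes. The 13 heat shock chaperones had a median of -0.01 and the 18 genes of the unfolded protein response a median of 0.03, with 0 called in either. Hsf1 (0.26, SE 0.19), Hspd1 (-0.56, SE 0.35), Ddit3 (0.45, SE 0.32) and Asns (-0.59, SE 0.39) had the smallest p in these 2 lists. Without exosome library 1, Hspd1 was at -0.10 and Ddit3 at 0.23, and without exosome library 2, Asns was at -0.34.

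Genes of p53 and apoptosis had a median of -0.14 with 18 of 25 below 0, and those of the cell cycle a median of -0.39 with 18 of 22 below 0. In both lists 0 passed. Bid, which carries the death signal to mitochondria, was at 10.1 and 10.8 CPM with the mimic, 47.0, 16.5 and 14.1 with exosomes and 36.3, 21.5 and 27.3 with scrambled miRNA (-1.31, SE 0.50, and -0.56 without exosome library 1). Zmat3, a p53 target, was at 25.8 and 20.4 against 28.9, 29.4 and 30.5 CPM (-0.36, SE 0.17, and -0.20 without mimic library 2). The cell cycle median was -0.03 without exosome library 2. Mcm7, a subunit of the replicative helicase, was at 13.5 and 20.5 CPM with the mimic and 23.8, 30.1 and 17.7 with exosomes (-0.48). Cdc20, 1 of the 4 cell cycle genes above 0, went the other way with a log2 fold of 0.81. It lay between 0.60 and 0.99 when any 1 library of the fit was left out. Mki67, a proliferation marker, was at 0.422 to 3.37 CPM in the 5 libraries.

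NRF2 antioxidant genes leaned lower with the mimic. Of 20 tested 0 passed, 17 were below 0 (median -0.33, between -0.23 and -0.47 without any 1 of the 5 libraries), and 8 lay below all exosome libraries, beside 10.1% of all genes. Txn1, thioredoxin, was at 116 and 122 CPM with the mimic, 350, 220 and 129 with exosomes, and 365, 212 and 303 with scrambled miRNA (log2 fold -0.97, SE 0.39, and -0.55 without exosome library 1). Gsr, glutathione reductase, was at 63.5 and 69.2 against 162, 105 and 77.5 CPM (-0.79, SE 0.30, and -0.46 without exosome library 1), and at 165, 138 and 190 CPM with scrambled miRNA. Exosome library 3 was nearest to the mimic in both, and exosome library 1, which carried the proximal tubule RNA, was highest. The part of that tubular RNA in the difference was not tested.

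Hypoxia and glycolysis genes had a median of 0.17 with 15 of 23 above 0 and 0 called. Ndrg1, a hypoxia-induced stress gene, was at 350 and 354 CPM with the mimic, 835, 671 and 385 with exosomes and 736, 844 and 1333.5 with scrambled miRNA (-0.84, SE 0.36). Gapdh was at 411 and 369 against 611, 523 and 419 CPM (-0.41, SE 0.22). The 28 matrix and TGF-beta genes had a median of 0.02, with 0 called and 19 intervals within 1 log2 unit. Tgfb3, a TGF-beta ligand, and Smad3, which passes its signal on, differed by 0.81 (SE 0.58) and -0.24 (SE 0.21), and Tgfb3 by 0.44 without exosome library 3. Col4a1 and Col4a2, the collagen IV chains of vessel basement membrane, differed by 0.01 and 0.02, and stood at 390 and 362 CPM with the mimic and 277, 433 and 408 with exosomes for Col4a1, beside 636 to 708 with scrambled miRNA.

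**Figure D4:**
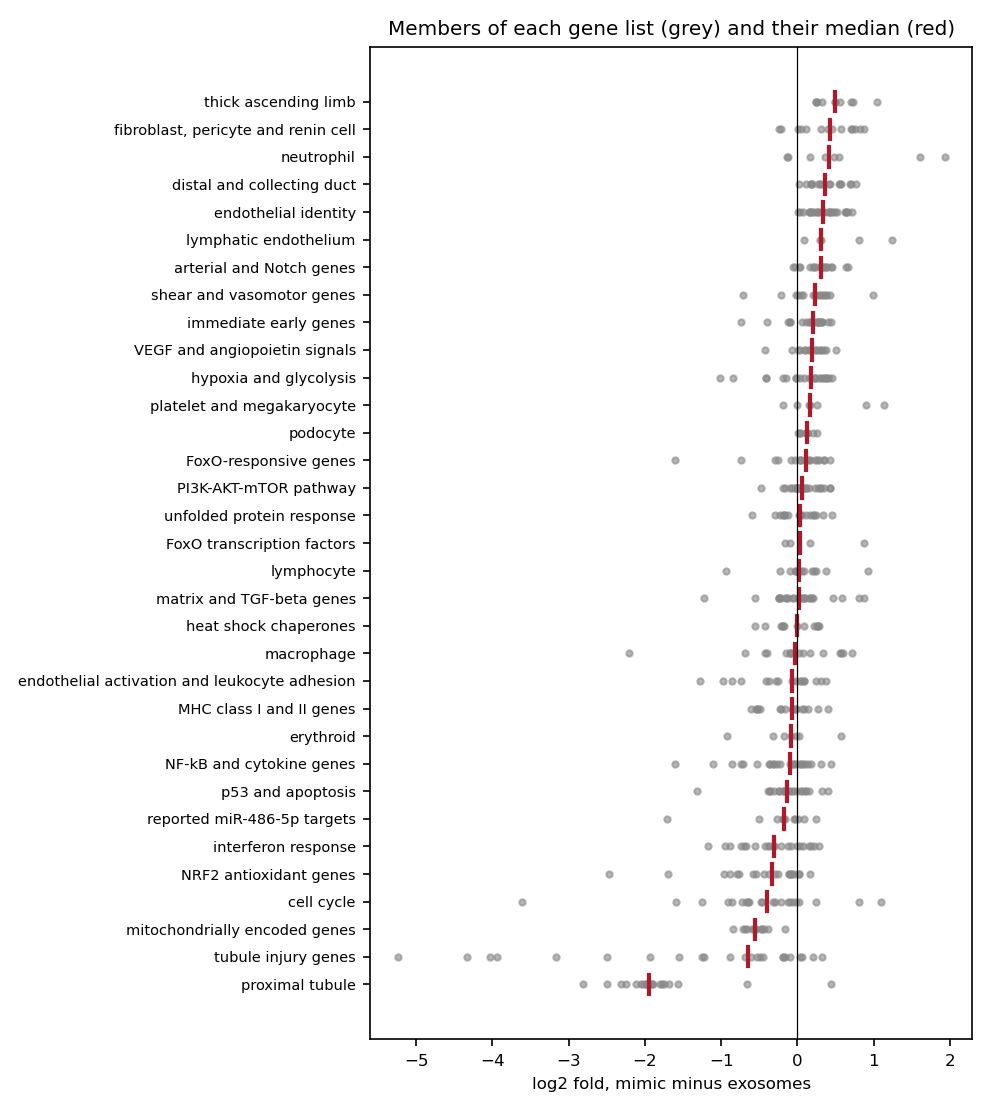
Log2 fold of mimic over exosomes for the members of 33 gene lists that are reported here (grey points) and the median of all tested members (red bar), ordered by median. Proximal tubule genes (median -1.95) and tubule injury genes (-0.64) lie lowest, thick ascending limb genes (0.49) highest, and endothelial identity genes are all at or above 0.

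Among the 33 lists, those of proximal tubule and injured tubule genes had the medians farthest from 0. The size of each median depended largely on 1 exosome library. Of 20 proximal tubule genes 0 passed, 19 were below 0, and the median log2 fold was -1.95; it was -0.39 without exosome library 1. The summed level was 28764 CPM in that library, 4183 to 6130 CPM in the other 4, and 7970 to 14174 CPM with scrambled miRNA. Slc34a1, the phosphate transporter of this segment, was at 351 and 246 CPM with the mimic and 2389, 413 and 333 with exosomes (-1.81, SE 0.85, and -0.32 without exosome library 1). Slc13a3, a dicarboxylate transporter, was at 72.7 and 44.3 against 552, 127 and 82.9 CPM (-2.12, SE 0.76, and -0.85 without exosome library 1).

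Pck1, the gluconeogenic enzyme of proximal tubules (chromosome 2, 173153048 to 173159273), had the smallest p of this list. In it, as in 12 of the 20 genes, both mimic libraries lay below all exosome libraries (10.1% of all genes). It was at 137 and 109 CPM with the mimic, 816, 294 and 291 with exosomes, and 746, 643 and 947 with scrambled miRNA. The log2 fold was -1.92 (SE 0.47), and -1.25 without exosome library 1. DESeq2 called it with an adjusted p of 0.0249, while edgeR's adjusted p was 0.988.

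Genes of injured tubules had a median of -0.64 with 20 of 24 below 0 and 0 called, and a median of 0.06 without exosome library 2. Havcr1, the kidney injury molecule KIM-1, was at 0.42 and 3.20 CPM with the mimic, 8.90, 79.7 and 1.06 with exosomes, and 569, 74.8 and 217 with scrambled miRNA (-3.94, SE 1.66, and -1.39 without exosome library 2). Lcn2, the secreted injury marker NGAL, was at 11.5 and 27.2 against 29.1, 277 and 22.2 CPM, beside 366, 524 and 628 with scrambled miRNA (-2.49, SE 1.04, and -0.42 without exosome library 2). Both mimic libraries and exosome libraries 1 and 3 thus lay well below the scrambled-miRNA libraries in Lcn2, and exosome library 2 did not. Fga and Fgg, fibrinogen chains that injured tubules are known to make, were low in exosome library 3 as well: Fga was at 1.62 and 3.56 CPM with the mimic, 67.2, 87.2 and 6.00 with exosomes and 231 to 1110 with scrambled miRNA (-4.33, SE 1.22), and Fgg differed by -4.03 (SE 1.17). In both fibrinogen genes the groups did not overlap, and without any 1 library of the fit the log2 fold of Fga lay between -5.04 and -3.81.

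Genes of later nephron segments leaned higher with the mimic. All 10 thick ascending limb genes (median 0.49) and all 16 distal and collecting duct genes (median 0.36) had log2 folds above 0, and 0 were called. The summed thick ascending limb level was 44582 and 46108 CPM with the mimic, 22195, 26427 and 40265 with exosomes, and 8132 to 22179 with scrambled miRNA. The distal and collecting duct sums overlapped, at 3295 and 2804 CPM with the mimic and 1439, 1762 and 3282 with exosomes. Both mimic libraries exceeded all exosome libraries in 6 of the 10 and 2 of the 16 genes (10.2% of all genes). The distal and collecting duct median lay between 0.12 and 0.82 when any 1 library of the fit was left out. For Umod the log2 fold was 0.50 (SE 0.41, and 0.29 without exosome library 1), for the potassium channel gene Kcnj1 0.56 (SE 0.40), and for the prostaglandin receptor gene Ptger3 0.70 (SE 0.42). Aqp2, the water channel of the collecting duct, was at 629 and 565 CPM with the mimic and 171, 377 and 556 with exosomes (0.70, SE 0.42), and Slc26a4, pendrin, differed by 0.55 (SE 0.32). Without exosome library 1 these were 0.36 and 0.26. Exosome library 3 lay next to the mimic libraries in all of these sums. The 10 podocyte genes differed by 0.12 in the median, or -0.16 without exosome library 1, and all their intervals lay within 1 log2 unit, including those of Podxl (0.21, SE 0.26) and Synpo (0.26, SE 0.30).

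All 13 mitochondrially encoded genes had log2 folds below 0 (median -0.55), and 0 were called. Their summed level was 150080 and 136210 CPM with the mimic, 150010, 250520 and 239630 with exosomes, and 80013 to 134040 with scrambled miRNA. Exosome library 1 was thus level with the mimic, and the other two were higher. mt-Co2 was at 10036 and 9910 CPM with the mimic and 13878, 21101 and 18747 with exosomes (-0.84, SE 0.35), and mt-Nd1 differed by -0.69 (SE 0.33). Leaving these genes out gave 0 calls again.

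**Figure D5:**
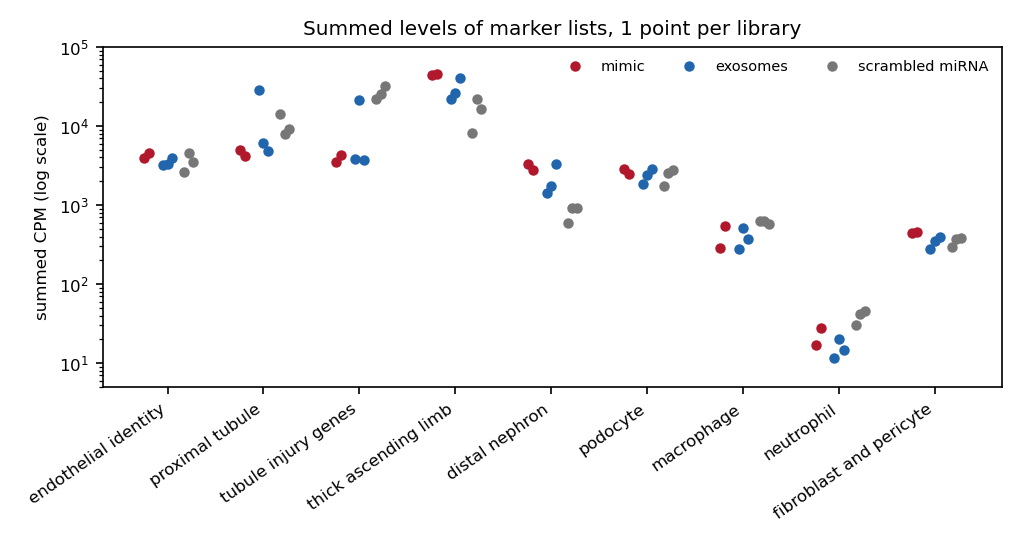
Summed level of marker lists in each library, in CPM on a log axis, for mimic (2 points), exosomes (3) and scrambled miRNA (3). Proximal tubule genes are high in exosome library 1 (28764 CPM), tubule injury genes in exosome library 2 (21351 CPM), and endothelial identity genes span 2646 to 4622 CPM over all 8 libraries.

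Markers of leukocytes and stroma were measured as well. Macrophage genes had a median of -0.03 (8 of 16 above 0), with summed levels of 286 and 545 CPM with the mimic and 276, 506 and 373 with exosomes. For 4 of these 16 genes the interval lay within 1 log2 unit. Cd68 (-0.68, SE 0.43) and Mrc1 (0.33, SE 0.18) had opposite signs, and were -1.42 and 0.08 without mimic library 2. Lymphocyte genes had a median of 0.02, and their sums, 41.2 and 85.2 against 34.1, 85.2 and 55.1 CPM, covered the same range. Of the 16 lymphocyte genes tested, 0 had an interval within 1 log2 unit. Lck differed by -0.23 (SE 0.61) and Igkc by 0.92 (SE 0.48, and -0.19 without mimic library 2). Neutrophil genes were scarce: 8 of 13 could be tested, 3 had no read in any of the 8 libraries, and the sums were 17.2 and 28.2 CPM with the mimic, 11.7, 20.2 and 14.8 with exosomes and 30.1 to 45.1 with scrambled miRNA (median 0.42).

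S100a8, a subunit of the neutrophil protein calprotectin (chromosome 3, 90668978 to 90670035), was among the genes highest relative to exosomes. It was at 3.73 and 8.21 CPM with the mimic, 2.08, 2.24 and 1.59 with exosomes, and 5.76, 12.1 and 9.26 with scrambled miRNA (log2 fold 1.60, SE 0.43, and 0.91 without mimic library 2). Its partner S100a9 overlapped, at 5.07 and 6.37 against 2.33, 7.45 and 3.62 CPM, and Retnlg, another neutrophil gene, did too (0.54, SE 0.55, and 0.21 without exosome library 1). Platelet and erythroid lists had medians of 0.17 and -0.08, with Ppbp at 1.13 (SE 0.78), Gp1bb at 0.90 (SE 1.26), Slc4a1 at 0.57 (SE 0.62) and Alas2 at -0.92 (SE 0.57). All 4 moved by over 1.5 times without single libraries, Ppbp to -0.44 without mimic library 2, Alas2 to -0.33 without mimic library 1, Gp1bb to 0.32 without exosome library 1 and Slc4a1 to 0.27 without exosome library 2. The 5 lymphatic genes tested were all above 0 (median 0.32), among them Reln (1.24, SE 0.52) and Prox1 (0.81, SE 0.36), a factor that the nephron also expresses.

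Acta2 and Tagln, genes of contractile cells, had some of the highest ratios of mimic to exosomes among stromal genes. Of 14 fibroblast, pericyte and renin cell genes 0 passed, 12 were above 0, the median was 0.43, and in 6 both mimic libraries exceeded all exosome libraries (10.2% of all genes). Acta2, smooth muscle actin, was at 44.8 and 39.2 CPM with the mimic, 20.5, 27.2 and 29.4 with exosomes, and 19.9, 19.6 and 21.4 with scrambled miRNA (log2 fold 0.71, SE 0.19). Tagln, the actin-binding protein transgelin, was at 26.5 and 29.7 against 13.3 to 19.2 CPM, and at 12.0, 12.7 and 17.3 CPM with scrambled miRNA (0.83, SE 0.23). Both transcripts were higher in the 2 mimic libraries than in all 6 others. Ren1, the renin gene of the afferent arteriole, was at 68.3 and 107 CPM with the mimic and 36.8, 62.4 and 56.7 with exosomes (0.75, SE 0.26). Pdgfrb, a pericyte receptor, differed by 0.05 (SE 0.27), Cnn1, the smooth muscle protein calponin and no member of the list, by 0.10 (SE 0.89), and the summed list stood at 447 and 453 CPM with the mimic and 275, 348 and 397 with exosomes.

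Outside the lists, genes were named by the smallest p among those with a log2 fold of at least 1, although none passed. On the higher side were Slc2a10, a facilitative sugar transporter of arterial tissue (2.81 and 4.00 CPM with the mimic; 0.665, 1.12 and 0.971 with exosomes; log2 fold 1.88, SE 0.50), Wnt11, a secreted Wnt ligand (2.16, SE 0.71), Rbp7, a retinoid-binding protein of endothelium (1.13, SE 0.39), Atg16l2, a relative of the autophagy gene Atg16l1 (1.08, SE 0.31), and Olfml2b, an extracellular matrix protein. Olfml2b was at 19.1 and 18.0 CPM with the mimic, 7.32, 7.45 and 12.8 with exosomes and 2.19 to 5.17 with scrambled miRNA (1.01, SE 0.36). With transcript lengths in the model the log2 fold of Slc2a10 was 0.10.

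The other names on that side were pseudogenes, whose reads can be shared with their parent genes and are therefore uncertain. Gm48493 had no read with exosomes and stood at 2.96 and 6.89 CPM with the mimic, at least 71.5-fold higher when 3 reads over the exosome group are taken as the floor, and at 3.79 to 22.0 CPM with scrambled miRNA. DESeq2 called it with an adjusted p of 1.78e-05. Gm12715 had no read with exosomes either (4.36 and 4.41 CPM with the mimic, at least 57.5-fold higher by the same floor), and AC134468.1 and Gm12895 had log2 folds of 3.24 (SE 1.05, and 8.75 without exosome library 1) and 1.98 (SE 0.71). The last stood at 155 CPM in mimic library 1 and 40.5 CPM in library 2, and its log2 fold was 0.71 without library 1.

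On the lower side besides Pck1 was Steap1, which encodes a membrane protein. It was at 0.352 and 0.761 CPM with the mimic, 5.49, 12.5 and 1.68 with exosomes, and 24.0, 9.89 and 19.7 with scrambled miRNA (log2 fold -3.47, SE 0.85). Ugt1a8, a glucuronosyltransferase that shares exons with the other Ugt1a genes, was at 1.41 and 0.801 against 33.7, 5.69 and 3.79 CPM (-3.74, SE 0.98, and -2.14 without exosome library 1). DESeq2 called both, with adjusted p values of 0.00837 and 0.00817. Psat1, an enzyme of serine synthesis, was at 10.3 and 11.0 CPM with the mimic, 27.6, 23.9 and 15.8 with exosomes, and 89.8, 53.5 and 75.1 with scrambled miRNA (-1.07, SE 0.29, and -0.64 with transcript lengths in the model). Sh3bp2, an adaptor protein, was at 4.50 and 5.89 against 15.5, 20.0 and 9.00 CPM, beside 20.9 to 35.7 with scrambled miRNA (-1.50, SE 0.37, and -0.74 with transcript lengths in the model). In Steap1, Psat1 and Sh3bp2 alike the mimic libraries were lowest, the scrambled-miRNA libraries mostly highest, and exosome library 3 nearest to the mimic.

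Also on that side were Tcea3, a transcription elongation factor (-1.53, SE 0.40), Greb1l, a regulator of kidney development (-2.17, SE 0.58, and -1.23 with transcript lengths in the model), the antisense gene Gm12744 (-2.01, SE 0.48) and the pseudogenes Gm14491 (-1.27, SE 0.32) and Gm12013 (-1.31, SE 0.33). The counting is not stated to use strand, so reads of Gm12744 and of a gene on the opposite strand may not be told apart.

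The authors' deposited tables set each treatment against sham mice, which were not analysed per sample here. The tables share those sham libraries, so the values are given side by side only. Folds in the authors' deposited tables appear shrunken toward 0. Ccl20 with exosomes, for example, has 0.12 (SE 0.38) there and yet an adjusted p under 0.05. The amount may differ between those tables, and they are not on the scale of the folds above. Called in the authors' deposited tables were 2181 genes for mimic-treated injury over sham (742 up, 1439 down), 1236 for exosome-treated injury (616 up, 620 down) and 853 for untreated injury (638 up, 215 down). For Lcn2 the authors' deposited tables give log2 folds over sham of 1.96 (SE 0.92) with the mimic, 4.81 (SE 0.76) with exosomes and 7.20 (SE 0.75) untreated. For Pck1 the authors' deposited tables give -3.70 (SE 0.50), -1.66 (SE 0.46) and 0.32 (SE 0.37) in the same order. Acta2 had 1.42 (SE 0.40), 0.60 (SE 0.36) and 0.30 (SE 0.30) in the authors' deposited tables, and Foxo1 had -0.05 (SE 0.28), 0.16 (SE 0.24) and 0.20 (SE 0.24). Pecam1 stood at 1.11 (SE 0.48), 0.55 (SE 0.43) and 0.13 (SE 0.27) in the authors' deposited tables. Lcn2 was the farthest from sham of these 5 genes in untreated injury, and Pck1 in mimic-treated injury.

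Whether the endothelial comparison differed from that in proximal tubular cells of the same design (2 mimic and 3 exosome libraries) was tested as an interaction over 16 libraries. Of 17143 genes 0 (0.0%) passed edgeR's test, the smallest adjusted p was 0.399, and 1621 (9.46%) had an unadjusted p under 0.05, 816 (4.76%) higher and 805 (4.7%) lower. DESeq2 called 31 genes. The difference of the log2 folds, endothelial minus tubular, was -0.54 (SE 0.33) for Foxo1, -0.12 (SE 0.24) for Akt1, 0.51 (SE 0.31) for Pecam1 and -3.41 (SE 1.41) for Fga. By edgeR no gene was thus shown to differ between the 2 cell types. The labels do not say whether the same mice supplied both.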

How the data were processed

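Reads per transcript had been estimated by the authors with Salmon 0.13.1 on GRCm38, per the submitters' processing notes. Each deposited file holds estimated counts (need not be whole) and TPM for 136202 transcripts, of which 131636 have names in GENCODE M21, and an effective length, per the file headers. The authors' deposited tables of each treatment over sham hold log2 fold changes with SEs, p-values and adjusted p-values, and a mean of normalized counts as a signal. DESeq2 is named in the submitters' processing notes.

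Estimated counts were summed per gene (53392 genes) and rounded. The 8 endothelial libraries (2 mimic, 3 exosomes, 3 scrambled miRNA) were fitted together with edgeR 4.0.16 in R 4.3.3, with TMM scaling, filterByExpr (minimum count 10, minimum total 15), the quasi-likelihood test and Benjamini-Hochberg adjustment over all genes tested at 0.05. The interaction with tubular cells used 16 libraries. Intervals are 95%, and log2 CPM for distances used a prior count of 2. Summed marker levels are sums of TMM-scaled CPM over the tested members. With 2 libraries against 3 an exact one-sided permutation of a single gene cannot go below 0.1.

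Genes were named by rule: called genes, otherwise the 10 per direction with the smallest p among those with a log2 fold of at least 1 and 20 reads on average; a set of anchor genes; and the 2 members of each list with the smallest p. Other list members (such as Dll4, Vegfa, Angptl4, Klf2, Klf4, Col4a1, Fos, Junb, Hspa1b, Mki67, Pdgfrb and S100a9) were chosen after their values were seen. The comparison and the 33 gene lists were chosen with earlier results of these data known. The procedure was tested on simulated data. Alternatives were DESeq2 1.42.0, other size factors, no low-count filter, a replicate block, transcript length offsets, thinning to 8.274 M reads, fits without single libraries, without scrambled-miRNA libraries or without mitochondrial genes. Some genes of the lists are not reported here by name; they stay in the fits and in the counts and medians of their lists.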

Additional observations from a re-analysis of the deposited data

How the results depend on the processing

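With edgeR, 0 genes were called between mimic and exosomes under every alternative that kept the low-count filter, including those without any 1 of the 8 libraries (0 to 0), with the smallest adjusted p at 0.248 without exosome library 1. DESeq2 called 5 genes. Without the filter edgeR called 661 (61 higher, 600 lower). Of these, 654 are genes that the filter keeps, and 53 averaged under 20 reads over the 5 libraries. That fit took in 29341 genes and estimated an infinite prior degrees of freedom, against 4.069 with the filter. For the interaction with tubular cells DESeq2 called 31 genes, edgeR without the filter 768, and fits without 1 library 0 to 2 (1 without endothelial exosome library 3, 2 without tubular exosome library 1 and 2 without tubular mimic library 1). The cause was not tested. The count at an unadjusted p under 0.05, 661 with all libraries, was 416, 790 and 1586 without exosome library 1, 2 or 3, and 294 and 282 without mimic library 1 or 2.

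The replicate number of the titles as a block gave 0 calls in both comparisons; same-numbered mimic and exosome libraries deviated together with correlations of 0.0358 and 0.0920, so the numbers were not taken as pairs. Under the replicate block the log2 folds of Vcam1 and Sele were -0.102 and -0.0915.

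Among the 95 named genes, signs turned as follows. With transcript length offsets the log2 fold of Foxo3 was 0.0633, Akt1 -0.115, Vcam1 -0.00602, Selp 1.37, Nlrc5 0.528 and Nr4a2 -1.08. Thinned to equal depth, Vcam1 was -0.0144 and Icam1 0.0398. Without single libraries the log2 folds ranged from -0.296 to 0.0269 for Foxo1 (above 0 without exosome library 1), from -0.268 to 0.0497 for Foxo3 (above 0 without exosome library 3), from -0.0162 to 0.274 for Akt1 (below 0 without exosome library 1) and from -0.0148 to 0.336 for Pecam1 (below 0 without mimic library 2). The ranges were -0.320 to 0.313 for Vcam1, -0.22 to 0.249 for Icam1, -0.140 to 0.376 for Sele, -2.51 to 0.674 for Selp, -0.878 to 0.320 for Lck, -0.192 to 1.53 for Igkc and -0.443 to 1.83 for Ppbp. Seed matches of miR-486-5p, planned as a further description, were not run, since its sequence was not at hand.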
